A study of Mus musculus with 18 samples.

Results

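The Hox cluster genes were taken as every gene symbol made of Hox, a cluster letter from a to d and a paralogue number. This rule gave 39 genes, 11 Hoxa, 10 Hoxb, 9 Hoxc and 9 Hoxd, out of 25209 symbols in the tissue tables and 24825 in the culture tables. Antisense and predicted transcripts of the clusters were left out. The set was selected on the measured FPKM of Hoxb genes, which were lower in cultures labelled NFIA-Tg than in WT cultures. The genotype differences in the cultures are therefore given as a description, without a test.

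RNA-seq of polyadenylated RNA was carried out on mouse iWAT (inguinal white adipose tissue, a subcutaneous depot), and on cultures grown from the stromal-vascular fraction of inguinal fat (ingSVF). Wild-type (WT) samples were set against NFIA-Tg samples, which carry a transgene of the nuclear factor I transcription factor NFIA. The 6 groups of 3 samples were WT iWAT, NFIA-Tg iWAT, and WT and NFIA-Tg cultures at day 0, before differentiation, and at day 7. Differentiation was induced at confluence for 48 hours with 0.5 mM isobutylmethylxanthine, 125 nM indomethacin, 1 µM dexamethasone, 850 nM insulin, 1 nM T3 and 1 µM rosiglitazone, after which insulin, T3 and rosiglitazone were kept in the medium. The promoter of the transgene, the sex and age of the mice and the number of animals behind a culture are not stated in the sources at hand. Nothing states that the 3 samples of a group came from separate animals or cultures, so p-values measure the spread between these samples only.

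Hox genes encode homeodomain transcription factors that give cells a position along the head-to-tail axis and along the limbs. They lie in clusters in which gene order follows the order of expression, from anterior genes with low paralogue numbers to posterior genes with high ones, and genes with the same number in different clusters are paralogues. Adult fibroblasts and preadipocytes keep a Hox profile typical of the body region from which they came.

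Levels are in FPKM, reads divided by gene length and by library size, and fits were made with limma on log2(FPKM + 1), a scale that understates the fold of low genes. The cultures gave 16772594 to 28625625 recovered reads per library. For iWAT the depth is unknown, with FPKM sums per library between 444682 and 487844. Replicates of a group correlated at 0.988 to 0.993 (iWAT) and 0.997 to 0.998 (cultures) across genes. As a check of the labels, Nfia was at 3.73, 4.19 and 3.94 FPKM in WT iWAT and at 166, 99.6 and 157 FPKM in NFIA-Tg iWAT. At day 0 it was at 6.42, 6.30 and 6.51 FPKM in WT and at 11.3, 12.5 and 11.9 FPKM in NFIA-Tg cultures. At day 7 it went against the label, with 12.5, 13.0 and 12.01 FPKM in WT against 6.44, 7.32 and 7.20 FPKM in cultures labelled NFIA-Tg. Adipocyte markers were abundant in iWAT and in both day 7 groups. At day 7 their sum, most of it Fabp4, was 26830 to 31000 FPKM in WT and 27060 to 30570 FPKM in cultures labelled NFIA-Tg. Singly, 5 of 9 tested adipocyte markers were lower there and 0 higher by limma's adjusted p, where 51.1% of all tested genes were called lower and 29.8% higher. Adipoq was at 1284, 1275 and 1325 FPKM in WT against 258.5, 276 and 240.4 FPKM in cultures labelled NFIA-Tg.

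Sequences of the Hox clusters are shown first for the Hoxb genes that differed most between the culture groups and had a promoter entry, with Hoxc4 from a cluster that did not follow Hoxb at day 0. RefSeq windows from 250 bases before to 50 bases after the start were found for 22 of the 39 genes, 24 windows in all, on build GRCm38.p6, and among Hoxb only for Hoxb1, Hoxb4 and Hoxb8. The Hoxb8 window is chr11:96281655-96281954, the Hoxb4 window chr11:96318017-96318316 and the Hoxc4 window chr15:103034145-103034444, all on the plus strand. Capitals mark the core motif of nuclear factor I proteins, TTGGC, read on either strand (GCCAA on the reverse).
Hoxb8: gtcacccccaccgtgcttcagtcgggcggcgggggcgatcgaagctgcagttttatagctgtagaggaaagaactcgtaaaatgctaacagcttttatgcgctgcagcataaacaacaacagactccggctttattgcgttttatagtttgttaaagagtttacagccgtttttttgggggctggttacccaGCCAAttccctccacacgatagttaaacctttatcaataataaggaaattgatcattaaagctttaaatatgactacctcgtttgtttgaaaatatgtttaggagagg
Hoxb4: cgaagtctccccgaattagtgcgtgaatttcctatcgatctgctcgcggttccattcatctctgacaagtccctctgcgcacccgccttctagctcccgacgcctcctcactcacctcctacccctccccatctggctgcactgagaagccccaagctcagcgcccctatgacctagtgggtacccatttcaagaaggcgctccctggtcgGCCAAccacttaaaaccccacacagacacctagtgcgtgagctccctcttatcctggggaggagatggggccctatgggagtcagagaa
Hoxc4: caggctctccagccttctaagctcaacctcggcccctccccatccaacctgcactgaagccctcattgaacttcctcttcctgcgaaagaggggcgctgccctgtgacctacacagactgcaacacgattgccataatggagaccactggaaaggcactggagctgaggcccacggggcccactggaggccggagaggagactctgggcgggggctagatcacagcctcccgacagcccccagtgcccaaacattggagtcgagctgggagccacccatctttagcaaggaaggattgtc
The core motif stood once in the Hoxb8 window, once in the Hoxb4 window and nowhere in the Hoxc4 window. It was present in 16 of the 24 Hox windows and in 46.7% of all 32851 promoter windows of the same length. The full NFI palindrome was found in 0 Hox windows and in 0.0365% of all windows. TATAAA, on either strand, stood in 4 of the 24 Hox windows, Hoxb8 among them, and in 13.6% of all windows. These are matches of letters and not measured binding.

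The clusters also hold microRNA genes, and miR-196a, encoded beside Hoxb9 (Mir196a-1) and in the Hoxc cluster (Mir196a-2), is known to direct cleavage of Hoxb8 mRNA. Its mature RefSeq sequence is shown with the seed, bases 2 to 8, in capitals. Below it stand the best-paired stretch of the Hoxb8 3′UTR, with the 1 base that pairs by G:U in capitals, and a Hoxb7 site with the perfect seed complement ACTACCT in capitals.
miR-196a-5p: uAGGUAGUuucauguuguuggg
Hoxb8 site: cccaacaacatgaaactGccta
Hoxb7 site: ctgtaaaaaaatatACTACCTa
In the Hoxb8 site 21 of 22 bases formed Watson-Crick pairs with miR-196a and 1 a G:U pair, and the next best stretch among Hox 3′UTRs, in Hoxd8, had 15 Watson-Crick pairs. The perfect seed complement stood in the 3′UTR of 9 of 39 Hox genes, Hoxb6, Hoxb7 and Hoxc8 among them, and in 6.1% of 21028 genes with an annotated 3′UTR.

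The Hox profile differed in make-up between tissue and cultures. Of the 39 genes, 29 reached a mean of 1 FPKM in at least 1 group, 22 of them in both iWAT and cultures. Hoxd3, Hoxd4, Hoxd8 and Hoxd9 reached it only in iWAT, and Hoxc11, Hoxc12 and Hoxc13, the most posterior Hoxc genes, only in cultures. The other 10 (Hoxa2, Hoxa11, Hoxa13, Hoxb1, Hoxb13, Hoxd1, Hoxd10, Hoxd11, Hoxd12 and Hoxd13) stayed below 1 FPKM in every group mean, with Hoxa2 nearest at 0.957 FPKM in NFIA-Tg iWAT. Tissue and culture tables were produced with different gene lists and lengths, so these levels were set side by side and not tested.

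**Figure D1:**
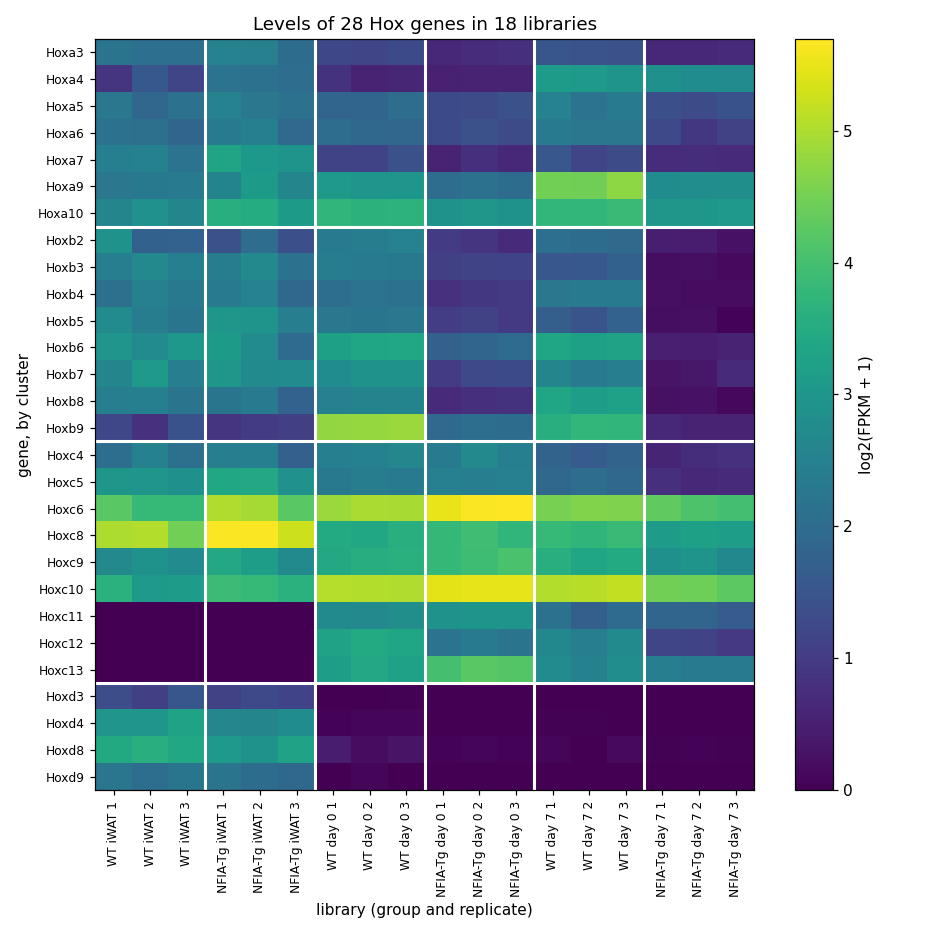
Levels of 28 Hox genes that reached a mean of 1 FPKM in at least 1 group, as colour on the log2(FPKM + 1) scale, with genes in rows by cluster and the 18 libraries in columns. Hoxd genes show signal in the 6 iWAT libraries and almost none in the 12 culture libraries, Hoxc11 to Hoxc13 the reverse, and Hoxb genes are darkest in the 3 NFIA-Tg day 7 libraries.

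Hoxd8 illustrates the Hoxd genes, with 10.0, 10.9 and 9.74 FPKM in WT iWAT and 0.345, 0.147 and 0.224 FPKM in WT day 0 cultures. Hoxd4 was at 6.87, 6.81 and 8.77 FPKM in WT iWAT and at 0.0324, 0.0533 and 0.0629 FPKM in WT day 0 cultures. In the cultures labelled NFIA-Tg no read was counted for Hoxd3, Hoxd4 and Hoxd9 at either day, which allows Hoxd4 a level of up to 0.0153 FPKM at day 0 and 0.0168 FPKM at day 7 (3 reads over the group, counting error only). In the opposite direction, Hoxc13 was at 8.12, 9.83 and 8.60 FPKM in WT day 0 cultures and is listed at 0 in all 6 iWAT libraries, as are Hoxc11 and Hoxc12. None of 10 housekeeping genes checked was listed at 0 in iWAT.

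The 2 members with the highest mean were Hoxc genes in every group. Hoxc8, a mid-cluster gene, led in iWAT with 28.0 FPKM on average in WT and 45.5 FPKM in NFIA-Tg. Hoxc10 and Hoxc6 led in the cultures, with 31.8 and 29.2 FPKM on average in WT day 0, and Hoxb9 came next there. In WT day 7 cultures Hoxa9 (21.4, 20.9 and 25.3 FPKM) overlapped with Hoxc6 (22.1, 23.6 and 23.2 FPKM). The cluster sums show how the balance shifted. In WT iWAT the means were 26.4 FPKM for Hoxa, 34.7 for Hoxb, 67.9 for Hoxc and 23.2 for Hoxd, and in WT day 0 cultures 29.4, 62.7, 115 and 0.319 FPKM. Hoxb genes made up 22.8% ± 0.339 (SD, n = 3) of the summed Hox FPKM in WT iWAT, 16.4% ± 0.891 in NFIA-Tg iWAT, 30.3% ± 0.244 in WT day 0 and 6.34% ± 0.0842 in NFIA-Tg day 0 cultures. At day 7 the Hoxb share was 22.8% ± 0.331 in WT and 2.57% ± 0.0168 in cultures labelled NFIA-Tg (n = 3 each).

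By paralogue position, summed over the clusters, the highest level lay at group 8 in WT iWAT, 42.3 ± 6.77 FPKM (SD, n = 3), carried mainly by Hoxc8. In WT day 0 cultures groups 6, 9 and 10 stood together, at 41.1 ± 1.58, 44.6 ± 1.21 and 43.7 ± 0.901 FPKM (n = 3). In NFIA-Tg day 0 cultures group 9 was at 20.4 ± 1.51 FPKM and group 6 at 52.4 ± 3.85 FPKM (n = 3). Groups 11 to 13 were listed at 0 in iWAT and ran from 5.64 to 9.42 FPKM in WT day 0 cultures.

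**Figure D2:**
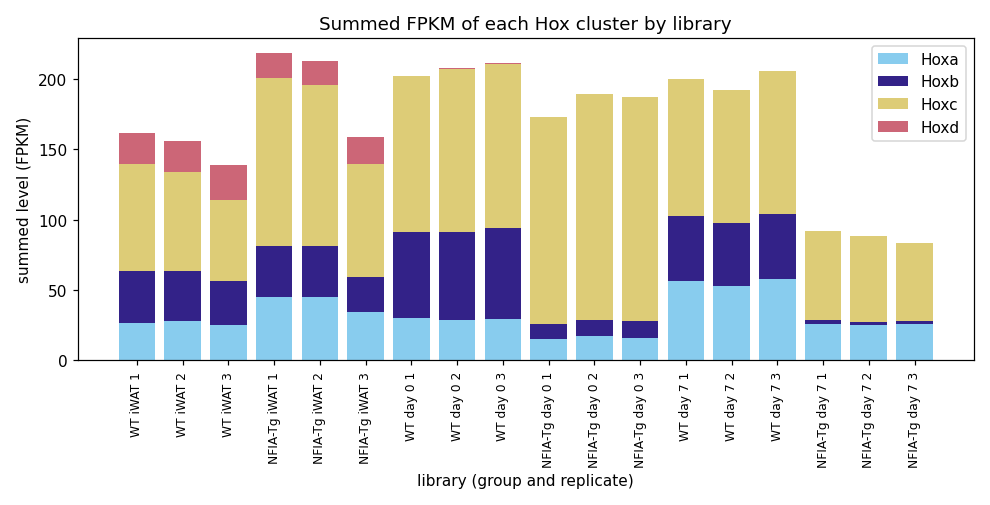
Summed FPKM of the Hoxa, Hoxb, Hoxc and Hoxd genes in each of the 18 libraries, as stacked bars from 0. The Hoxb segment is 60.9 to 64.5 FPKM in WT day 0 libraries and 2.15 to 2.37 FPKM in NFIA-Tg day 7 libraries, and the Hoxd segment is hardly visible outside iWAT.

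The Hoxb genes, from Hoxb2 to Hoxb9, were lower in every NFIA-Tg culture library than in every WT library of the same day. The 8 genes that passed the expression filter (1 FPKM or more in 3 or more libraries of the fit) include Hoxb2, Hoxb4, Hoxb5 and Hoxb8, which would not have passed on the NFIA-Tg libraries alone, and Hoxb1 and Hoxb13 did not pass. These values are those for which the set was chosen, and the groups of 38.6% of all tested genes also did not overlap and were lower at day 0, with 51.4% at day 7. Hoxb9, the most abundant, was at 26.5, 26.6 and 27.7 FPKM in WT day 0 and at 2.86, 3.16 and 3.06 FPKM in NFIA-Tg day 0 cultures. Day 7 levels were 11.1, 12.8 and 12.5 FPKM in WT against 0.573, 0.477 and 0.486 FPKM in cultures labelled NFIA-Tg. The ratio of group means was 8.90-fold at day 0 and 23.7-fold at day 7.

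Hoxb8 gave the largest ratio of the cluster at day 7. It was at 4.62, 4.83 and 4.90 FPKM in WT day 0 and at 0.617, 0.698 and 0.792 FPKM in NFIA-Tg day 0 cultures. At day 7 it was at 9.23, 8.21 and 8.57 FPKM in WT and at 0.200, 0.215 and 0.0902 FPKM in cultures labelled NFIA-Tg, a ratio of 51.5-fold that rests on 33 reads over the 3 NFIA-Tg libraries and 1577 over the WT ones. Across the 8 genes the ratios ran from 3.38-fold (Hoxb6) to 8.90-fold at day 0, median 4.36, and from 9.28-fold (Hoxb2) to 51.5-fold at day 7, median 19.0. Anterior Hoxb4 was at 3.15, 3.51 and 3.34 FPKM in WT against 0.767, 0.906 and 0.953 FPKM in NFIA-Tg day 0 cultures. At day 7 it was at 3.82, 4.02 and 4.11 FPKM in WT against 0.176, 0.133 and 0.139 FPKM in cultures labelled NFIA-Tg, 26.6-fold apart. Mid-cluster Hoxb6 was 20.4-fold apart at day 7, so the ratios of that day did not rise steadily along the cluster. At day 0 they rose from Hoxb6 (3.38-fold) over Hoxb7 (4.92-fold) and Hoxb8 (6.81-fold) to Hoxb9 (8.90-fold), while anterior Hoxb2 was 5.49-fold apart. In bulk RNA, fewer cells that express a gene and less RNA per cell cannot be told apart.

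**Figure D3:**
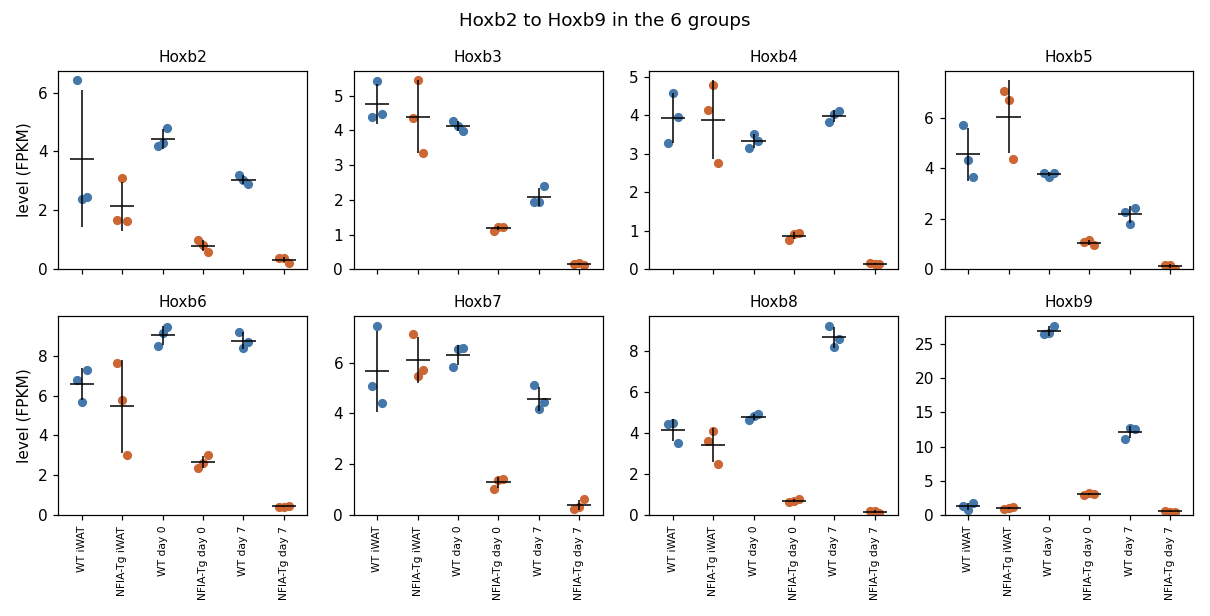
FPKM of Hoxb2 to Hoxb9 in the 6 groups, 1 panel per gene with its own axis from 0; points are libraries (blue WT, orange NFIA-Tg), the horizontal line is the mean and the vertical line ± 1 SD (n = 3). In both culture days the orange points lie below all blue ones, whereas in iWAT the groups of all 8 genes overlap.

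Hoxa and Hoxc genes did not share 1 direction at day 0. Of 8 Hoxa genes, 6 were lower in NFIA-Tg cultures without overlap, beside 38.6% of all tested genes, and Hoxa4 was among those that overlapped. Hoxa3 and Hoxa7, counted as lower, stayed below 1 FPKM in every NFIA-Tg culture library. They passed the filter through WT alone, so their part of the count supports nothing. Hoxa9, a posterior gene of the cluster, was at 7.31, 6.86 and 6.96 FPKM in WT against 3.09, 3.34 and 3.03 FPKM in NFIA-Tg day 0 cultures. Of 9 Hoxc genes, 7 were higher in NFIA-Tg cultures without overlap, Hoxc12 was lower and Hoxc4 overlapped, against 31.6% of all tested genes higher without overlap. Hoxc13 was at 8.12, 9.83 and 8.60 FPKM in WT and at 15.3, 17.8 and 17.0 FPKM in NFIA-Tg, while its neighbour Hoxc12 was at 8.70, 10.1 and 9.41 FPKM in WT and at 3.47, 3.98 and 3.56 FPKM in NFIA-Tg. The adjacent genes thus lay in opposite directions, 1.88-fold higher and 2.56-fold lower. The abundant Hoxc6 was at 27.7, 30.3 and 29.7 FPKM in WT against 44.2, 49.6 and 50.8 FPKM in NFIA-Tg, and Hoxc10 at 32.3, 31.7 and 31.3 FPKM in WT against 42.9, 43.7 and 43.9 FPKM in NFIA-Tg. The sign of the Hoxc4 difference changed under median-of-ratios scaling.

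At day 7 nearly every tested Hox gene was lower in cultures labelled NFIA-Tg. Without overlap, 7 of 8 Hoxa, 8 of 8 Hoxb and 8 of 9 Hoxc genes were lower, where the same held for 51.4% of all tested genes, and Hoxc11 overlapped. The Hoxa count again includes Hoxa3 and Hoxa7, which passed the filter through WT alone, and the Hoxb genes are those chosen for low values. Hoxc10 was at 32.1, 32.7 and 35.1 FPKM in WT against 21.2, 20.5 and 18.3 FPKM in cultures labelled NFIA-Tg. The Hoxc ratios ran from 1.18-fold (Hoxc11) to 4.56-fold (Hoxc5), below every Hoxb ratio. Summed FPKM of all Hox genes was 191.9 to 206 in WT and 83.2 to 92.1 in cultures labelled NFIA-Tg at day 7. Preadipocyte and fibroblast markers stood lower in the same libraries. The summed level of the 10 markers was 1072 to 1209 FPKM in WT against 243 to 329.5 FPKM in cultures labelled NFIA-Tg at day 7, with 8 of 9 tested genes lower and 1 higher by limma's adjusted p, where 51.1% of all tested genes were called lower. At day 0 that sum was 4900 to 5082 FPKM in WT against 5272 to 5927 FPKM in NFIA-Tg, with 4 genes higher and 1 lower, where 28.1% of all tested genes were called higher and 34.9% lower. The largest terms of that sum lay in opposite directions, with Ly6a at 1240 FPKM on average in WT and 2141 in NFIA-Tg, and Col1a1 at 3182 in WT and 2675 in NFIA-Tg. The 5 proliferation markers were lower in NFIA-Tg at both days, with sums of 151 to 153 FPKM in WT against 50.9 to 55.8 FPKM in NFIA-Tg at day 0. The part of these differences in the Hox results was not tested.

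In iWAT, which played no part in choosing the genes, no difference was called for Hoxb. All 8 tested Hoxb genes overlapped between the genotypes, where 20.5% of all tested genes were higher and 13.9% lower without overlap. By limma 0 of 8 was called, and 0 had an unadjusted p under 0.05. Hoxb9 was at 1.32, 0.745 and 1.70 FPKM in WT and at 0.827, 0.983 and 1.11 FPKM in NFIA-Tg iWAT, a log2 difference of -0.17 ± 0.19 (SE), and Hoxb8 gave -0.24 ± 0.17. Hoxb2, the lowest estimate at -0.53 ± 0.32, rested on 1 high WT library, with 6.43, 2.38 and 2.46 FPKM in WT against 1.68, 3.10 and 1.63 FPKM in NFIA-Tg. Over the 8 genes the median log2 difference was -0.14, beside 0.05 over all genes tested. The difference between iWAT and cultures was not tested. A simulated fit of iWAT recovered 0 of 200 changes of 0.5 and 145 of 200 of 1 on the log2 scale. Only those 200 genes were changed there, whereas 1413 genes were called in the data. The adjusted p was thus stricter in the simulation, and its rates do not carry over to the data. A small Hoxb difference could have been missed.

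The calls in iWAT lay in Hoxa and Hoxc. Hoxa4, Hoxa7, Hoxa10 and Hoxc8 were higher in NFIA-Tg iWAT by limma's Benjamini-Hochberg adjusted p, 4 of 26 tested Hox genes with 0 lower, where 5.96% of all tested genes were called higher and 5.44% lower. At an unadjusted p under 0.05 the number was 10 of 26 in either direction, beside 28.6% of all tested genes. Hoxa4 was at 0.839, 1.98 and 1.29 FPKM in WT and at 3.50, 3.35 and 3.08 FPKM in NFIA-Tg, a log2 difference of 0.89 ± 0.19 (adjusted p = 0.0227). It would not have passed the expression filter on the WT libraries alone and passed through NFIA-Tg, where it is high. Its difference is therefore a description, and its part of the count supports nothing. Hoxa7 was at 4.50, 4.63 and 3.51 FPKM in WT and at 9.03, 7.20 and 6.69 FPKM in NFIA-Tg, 0.73 ± 0.15 higher (adjusted p = 0.0208). These groups did not overlap for either gene. Hoxa10, a posterior Hoxa gene, was 0.71 ± 0.16 higher (adjusted p = 0.0271) and Hoxc8 0.69 ± 0.18 higher (adjusted p = 0.0432), with 30.8, 31.8 and 21.3 FPKM in WT against 49.9, 49.6 and 37.1 FPKM in NFIA-Tg for Hoxc8.

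None of these 4 calls held under every alternative, although their direction did. All 4 were lost with no expression filter, without WT replicate 3 or without NFIA-Tg replicate 2, and only Hoxa7 was called when NFIA-Tg replicate 1 was left out. Hoxc6 (0.77 ± 0.22, adjusted p = 0.0566) lay just outside the threshold. Hoxd4 and Hoxd8 were the 2 genes with lower, non-overlapping NFIA-Tg values, where 13.9% of all tested genes had such values. Hoxd8 was at 10.0, 10.9 and 9.74 FPKM in WT against 7.43, 6.63 and 8.73 FPKM in NFIA-Tg and was not called (-0.39 ± 0.13, adjusted p = 0.0843). Endothelial markers were lower in NFIA-Tg iWAT, 5 of 7 called, where 5.44% of all tested genes were called lower. Their sums were 714 to 754 FPKM in WT against 359.8 to 495 FPKM in NFIA-Tg. Of the skeletal muscle markers 1 of 3 tested was lower, with sums of 124 to 183 FPKM in WT against 12.9 to 41.6 FPKM in NFIA-Tg, and sums of the Schwann cell markers were 23.2 to 108 FPKM in WT and 65.1 to 109 FPKM in NFIA-Tg. Single markers of other cell types were higher, namely Cspg4 of pericytes, 1 of 5 smooth muscle and pericyte genes, at 6.92, 17.65 and 16.1 FPKM in WT against 41.3, 39.0 and 39.2 FPKM in NFIA-Tg, and S100b, 1 of 4 Schwann cell genes, at 6.63, 10.3 and 8.03 FPKM in WT against 29.55, 24.95 and 48.6 FPKM in NFIA-Tg. The part of any of these in the Hox differences was not tested.

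**Figure D4:**
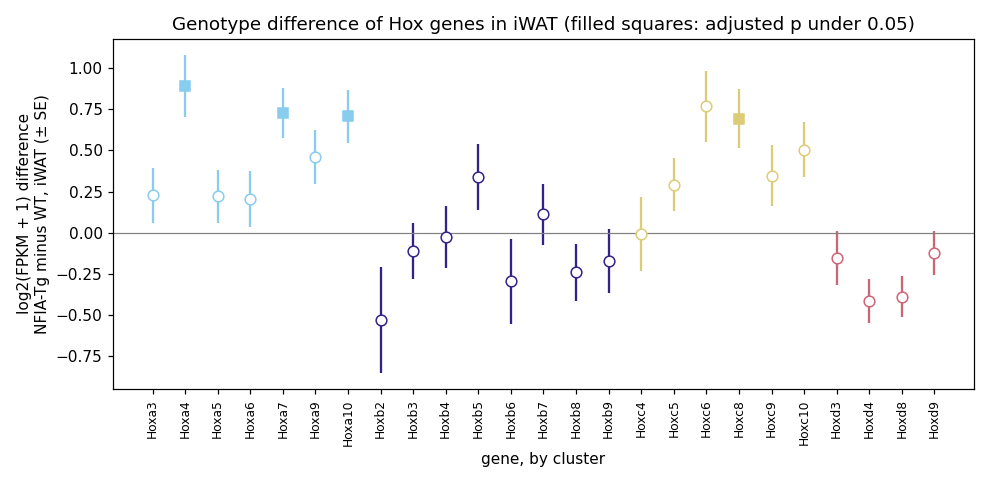
Difference of log2(FPKM + 1) between NFIA-Tg and WT iWAT for 25 tested Hox genes, in cluster order; points are estimates, bars ± 1 SE, and filled squares are the 4 called genes. Hoxa and most Hoxc estimates lie at or above 0, Hoxb estimates lie on both sides and the 4 Hoxd estimates lie below 0.

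In WT cultures Hox genes changed in both directions between day 0 and day 7. Of 25 tested members 8 rose and 11 fell (limma, adjusted p under 0.05), where 46.2% of all tested genes rose and 35.4% fell. Hoxa gave 5 rises and 0 falls of 8, Hoxb 2 and 5 of 8, and Hoxc 1 and 6 of 9. The Hoxb genes were chosen on WT against NFIA-Tg values of these cultures, so their counts and values are a description. Hoxa4 rose most, from 0.784, 0.475 and 0.525 FPKM at day 0 to 7.71, 7.52 and 6.73 FPKM at day 7, a 12.3-fold ratio (log2 difference 2.39 ± 0.07). Hoxa4 was below 1 FPKM in every day 0 library and passed the filter through day 7 alone. A fall could thus not have been seen, so its rise is a description and its part of the count supports nothing. Hoxa9 rose from 7.31, 6.86 and 6.96 FPKM to 21.4, 20.9 and 25.3 FPKM (1.55 ± 0.06). Its paralogue Hoxb9 was lower at day 7 (-1.09 ± 0.06). Hoxb8, the neighbour of Hoxb9, was at 4.62, 4.83 and 4.90 FPKM at day 0 and higher at day 7, at 9.23, 8.21 and 8.57 FPKM (0.74 ± 0.06). Within Hoxc, Hoxc4, Hoxc5, Hoxc6, Hoxc11, Hoxc12 and Hoxc13 fell and Hoxc8 rose (0.30 ± 0.06).

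With each library scaled to TPM, the median change of all genes shifted by -0.15 and 45.8% rather than 56.6% of calls were rises. Under that scaling the rises of Hoxa3, Hoxb4 and Hoxc8 were no longer called, and the signs of Hoxa7, Hoxa10 and Hoxc10, none of them called, changed.

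In cultures labelled NFIA-Tg all 9 tested Hoxc genes fell over the same interval. Of 25 members 3 rose (Hoxa4 and Hoxa9 among them) and 18 fell (Hoxa6, 8 Hoxb and 9 Hoxc), where 45.7% of all tested genes rose and 41.5% fell. The Hoxb genes were chosen for low values in these libraries, so their part of the count supports nothing and their values are given as a description. Ratios of day 0 to day 7 means ran from 2.45-fold (Hoxb2) to 8.56-fold (Hoxb5) in Hoxb and from 1.63-fold (Hoxc8) to 7.23-fold (Hoxc4) in Hoxc. Hoxb6 was at 2.37, 2.63 and 3.003 FPKM at day 0 and at 0.425, 0.401 and 0.462 FPKM at day 7, with no overlap. Hoxc5 fell from 4.61, 4.45 and 4.61 FPKM to 0.718, 0.583 and 0.590 FPKM (-1.77 ± 0.06, adjusted p = 6.26e-12). Hoxa4 again rose, from 0.438, 0.482 and 0.456 FPKM to 6.27, 5.81 and 5.68 FPKM, 12.9-fold (2.25 ± 0.07). This too is a description, because Hoxa4 passed the filter through day 7 alone. The TPM scaling shifted the median of all genes by -0.23 here and made 42.0% rather than 52.4% of calls rises. It turned Hoxa10, at 0.08 ± 0.05 and not called, into a called fall of -0.16 (adjusted p = 0.0215).

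**Figure D5:**
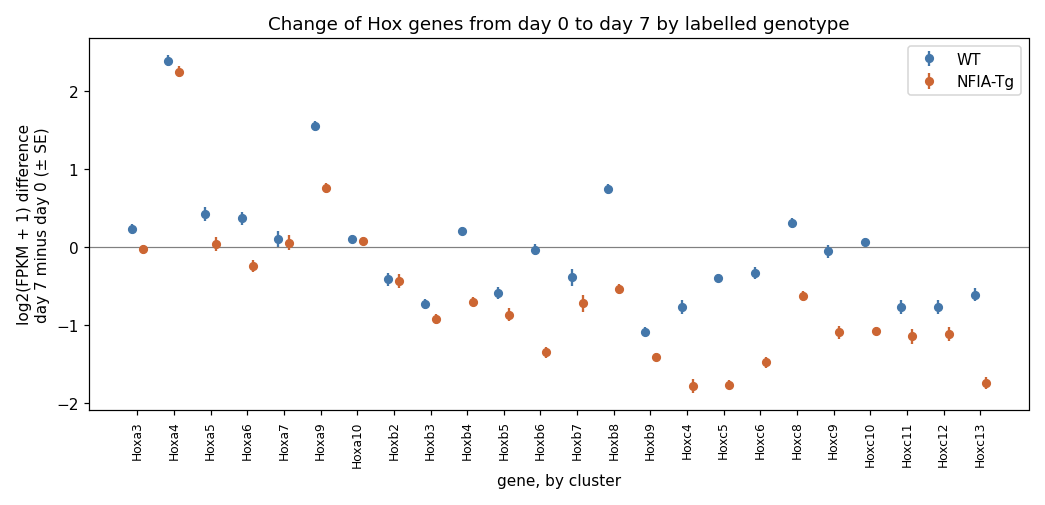
Change of log2(FPKM + 1) from day 0 to day 7 for 24 tested Hox genes in WT (blue) and NFIA-Tg (orange) cultures; points are estimates and bars ± 1 SE. Hoxa4 is near 2.39 in WT and 2.25 in NFIA-Tg, and the orange points of all Hoxb and Hoxc genes lie below 0.

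The change with differentiation was more negative in cultures labelled NFIA-Tg than in WT for 18 of 25 members (limma, genotype by differentiation), 9 of them Hoxc, 4 Hoxa and 5 Hoxb, where 42.6% of all tested genes were called more negative. Its direction rests on the day 7 labels, against which Nfia went. All 9 Hoxc genes were more negative, from -1.37 ± 0.08 (Hoxc5, adjusted p = 1.28e-08) to -0.34 ± 0.13 (Hoxc12, adjusted p = 0.0316). Hoxc10 did not pass the test in WT (0.07 ± 0.05, adjusted p = 0.247) and fell in cultures labelled NFIA-Tg, with a difference of -1.15 ± 0.07 (adjusted p = 2.44e-08). In Hoxa, Hoxa3, Hoxa5, Hoxa6 and Hoxa9 were more negative, led by Hoxa9 (-0.80 ± 0.09). Hoxa3 passed the filter through WT alone, so its call is no evidence. Hoxa4 was not called (-0.14 ± 0.11, adjusted p = 0.247). The Hoxb genes were chosen on these libraries, and Hoxb4, Hoxb5 and Hoxb8 passed the filter through WT, so their calls are no evidence. As a description, the difference was -1.32 ± 0.09 for Hoxb6 and -1.28 ± 0.09 for Hoxb8, and it moved with the pseudocount. At 0.1 it was -2.45 for Hoxb8, -1.44 against -0.20 for Hoxb3 and -1.12 against -0.33 for Hoxb7. All 9 tested adipocyte markers and all 9 tested preadipocyte and fibroblast markers were more negative in the same contrast, and their part in the Hox result was not tested.

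Genes of the pathways around Hox were described from lists. The TALE homeodomain proteins (Pbx, Meis and Pknox) bind DNA together with Hox proteins. Of 9, 4 were higher and 1 lower in NFIA-Tg at day 0, and 1 was higher and 6 lower at day 7, while 0 of 7 was called in iWAT (limma, adjusted p under 0.05) and 1 had an unadjusted p under 0.05. Over all tested genes 28.1% were called higher and 34.9% lower at day 0, and 29.8% higher and 51.1% lower at day 7. In iWAT 5.96% of them were called higher and 5.44% lower, and 28.6% had an unadjusted p under 0.05. Pknox2 was at 15.8, 16.0 and 16.3 FPKM in WT against 15.2, 14.7 and 14.3 FPKM in NFIA-Tg at day 0, and at 6.87, 7.01 and 8.60 FPKM in WT against 2.01, 1.73 and 1.93 FPKM in cultures labelled NFIA-Tg at day 7 (-1.55 ± 0.07, adjusted p = 5.37e-10). Polycomb proteins keep Hox clusters silent, and of 27 of their genes 10 were higher and 11 lower at day 0 and 7 higher and 14 lower at day 7, with no call among 26 in iWAT, where 1 had an unadjusted p under 0.05. Ezh2, an H3K27 methyltransferase and 1 of the 11 lower genes, was 0.75 ± 0.05 lower on the log2 scale at day 0 (adjusted p = 1.03e-07). The 10 higher genes of the list lay in the opposite direction that day. The part of the Polycomb genes in the Hox results was not tested. Of 14 Trithorax and H3K27 demethylase genes, which counter Polycomb, 3 were higher and 7 lower at day 0 and 3 higher and 9 lower at day 7. With differentiation, the TALE list gave 2 rises and 5 falls in WT and 2 and 6 in NFIA-Tg, Polycomb 12 and 11 in WT and 13 and 9 in NFIA-Tg, and the Trithorax list 7 and 2 in WT and 5 and 7 in NFIA-Tg. Beside these counts, 46.2% of all tested genes rose and 35.4% fell in WT, and 45.7% rose and 41.5% fell in NFIA-Tg.

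Retinoic acid induces Hox genes in embryos, and Aldh1a2, a retinaldehyde dehydrogenase that makes it, was lower in NFIA-Tg at both days and in iWAT. It was at 41.0, 40.4 and 40.8 FPKM in WT against 3.94, 3.80 and 3.84 FPKM in NFIA-Tg at day 0 (-3.10 ± 0.06, adjusted p = 7.89e-12). At day 7 it was at 12.9, 15.3 and 15.4 FPKM in WT against 0.150, 0.218 and 0.0790 FPKM in cultures labelled NFIA-Tg (-3.75 ± 0.06, adjusted p = 2.86e-13). In iWAT, where the Hoxb genes were not called, it was at 1.87, 2.103 and 1.40 FPKM in WT and at 0, 0.226 and 0.152 FPKM in NFIA-Tg (-1.31 ± 0.17, adjusted p = 0.00381). Aldh1a3, another retinaldehyde dehydrogenase, lay in the opposite direction at day 0, at 2.06, 2.29 and 1.93 FPKM in WT against 19.25, 16.3 and 18.9 FPKM in NFIA-Tg (2.63 ± 0.08, adjusted p = 1.55e-10), and was not called at day 7 or in iWAT. Rarb, a retinoic acid receptor, was higher in cultures labelled NFIA-Tg at day 7 (1.16 ± 0.07, adjusted p = 1.12e-08). Of the 11 tested genes of that list 5 were higher and 5 lower at day 0, 2 were higher and 5 lower at day 7, and the Cdx genes Cdx2 and Cdx4 were at 0 in all culture libraries. Among 15 other regional homeobox and T-box genes 5 were higher and 7 lower at day 0 and 3 higher and 10 lower at day 7. For both lists the shares over all tested genes were 28.1% higher and 34.9% lower at day 0, and 29.8% higher and 51.1% lower at day 7. In iWAT 3 of 14 of these homeobox and T-box genes were higher and 1 lower, where 5.96% of all tested genes were called higher and 5.44% lower. Tbx15, a subcutaneous fat gene, was among the higher ones (0.81 ± 0.14, adjusted p = 0.0111).

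Reads assigned to non-coding genes of the clusters were tested for 5 genes. They come from polyadenylated RNA and do not measure mature microRNA, and they cannot be told from those of overlapping transcripts because the strand setting of the counting is not given. Mir196a-1, whose miRNA is shown above, was at 52.8, 71.8 and 62.0 FPKM in WT against 7.53, 7.96 and 6.17 FPKM in NFIA-Tg at day 0 (-2.94 ± 0.14). At day 7 it was at 28.5, 21.1 and 29.4 FPKM in WT against 1.11, 0.743 and 1.17 FPKM in cultures labelled NFIA-Tg (-3.76 ± 0.14). It lies between Hoxb9 and Hoxb13, and it stood lower in the same libraries as Hoxb9. Hotairm1, at the anterior end of Hoxa, was higher in cultures labelled NFIA-Tg at day 7, with 19.4, 14.4 and 15.6 FPKM against 7.55, 6.64 and 7.72 FPKM in WT (1.06 ± 0.16, adjusted p = 4.22e-05). Hoxb3os was lower there (-2.73 ± 0.10). Mir196a-1 and Hoxb3os lie in the Hoxb cluster, which was chosen for low values in these cultures. Their differences are therefore a description and support nothing beyond that choice.

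The genes whose profile was most like the summed Hoxb level over the 12 culture libraries were Igf2bp3 (Pearson r of log2 values 0.996), Hnrnph2 (0.995), Ruvbl1 (0.995), Rpl39l (0.994) and Mapkapk2 (0.994), out of 9705 genes compared, of which 157 had r above 0.95. The 12 libraries fall into 4 groups, so r mainly follows the 4 group means. Igf2bp3, an RNA-binding protein of fetal tissues, was at 13.34, 13.98 and 13.44 FPKM in WT day 0 and 0.841, 1.14 and 1.10 FPKM in NFIA-Tg day 7 cultures.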

How the data were processed

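Polyadenylated RNA was sequenced from 18 mouse samples in 6 groups of 3, assigned from the sample titles and genotype, tissue and time labels. A stranded mRNA kit was used, per the labels' protocols. Mapping and quantification tools are STAR 2.7.8a and StringTie 2.1.1 with build mm9, per the submitters' processing notes. Annotation, strand setting and the handling of multiply mapped reads: not given in the sources used here. Each deposited file holds FPKM values and a gene length, per the file headers. For iWAT, 180 symbols occur more than once (410 entries), and their values were added. In the cultures the product of FPKM and length gave whole reads within a tolerance of 0.01, so reads were recovered there, and a chi-square test over genes found replicates further apart than counting noise (4.23 to 27.8 per degree of freedom). Without reads in iWAT, precision there rests on the spread between libraries.

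Two-sided tests used limma 3.58.1 under R 4.3.3, with log2(FPKM + 1) as input and trended eBayes, for genes that reached 1 FPKM in 3 or more samples of the fit. P-values were Benjamini-Hochberg adjusted over all genes tested and called at an adjusted p under 0.05. The iWAT fit held 6 samples (4 residual degrees of freedom) and the culture fit 12 (8). The filter left 26 Hox genes in iWAT and 25 in the cultures. The fit was tested on simulated data with 200 seeded genes. Members with a group mean of at least 1 FPKM are named, with up to 3 called genes of each companion list by adjusted p, except that 1 member and 1 listed gene are not reported here singly, and Ly6a, Col1a1, Cspg4, S100b and Rarb were named after their values were seen. The members, lists and tests were chosen with earlier results of these data known. Alternatives were pseudocounts of 0.1 and 0.5, no filter, a stricter filter (5 FPKM), TPM and median-of-ratios scaling, no trend, a replicate block, voom on recovered reads, fits of 1 genotype and leaving out each library. Promoters and miRNAs are from RefSeq tables on GRCm38.p6, and 3′UTRs from the GENCODE transcripts supplied.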

Additional observations from a re-analysis of the deposited data

Results flagged for a closer look

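The genotype difference changed between day 0 and day 7 for 18 Hox genes, listed here, by limma's test of the interaction. Over all tested genes 42.6% were called more negative and 29.5% more positive in that test. The sign rests on the day 7 labels, against which Nfia went. The calls of Hoxa3, Hoxb5, Hoxc11 and Hoxc12 were lost under at least 1 alternative. Values are log2 values of the change in cultures labelled NFIA-Tg minus the WT change, with no explanation weighed. In Hoxc the values were -1.01 for Hoxc4, -1.37 for Hoxc5, -1.15 for Hoxc6, -0.94 for Hoxc8, -1.04 for Hoxc9, -1.15 for Hoxc10, -0.37 for Hoxc11, -0.34 for Hoxc12 and -1.14 for Hoxc13. In Hoxb, whose genes were chosen on these same libraries so that the test supports nothing there, they were -0.91 for Hoxb4, -0.28 for Hoxb5, -1.32 for Hoxb6, -1.28 for Hoxb8 and -0.32 for Hoxb9. In Hoxa they were -0.26 for Hoxa3, -0.39 for Hoxa5, -0.61 for Hoxa6 and -0.80 for Hoxa9. Hoxa3 passed the expression filter through WT alone, so its test supports nothing either. The Hoxc genes other than Hoxc4 and Hoxc12 went from higher at day 0 to lower at day 7 in the means of NFIA-Tg cultures, whereas the Hoxb genes were lower at both days.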

How the results depend on the processing

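In iWAT the 4 Hox genes called higher became 0 with no expression filter and ranged from 0 to 4 when each library was left out, and all genes called went from 1413 to 934 with no filter and from 617 to 1262 with a library left out. Without WT replicate 2 or 3 they were 814 and 617, and without NFIA-Tg replicate 2 or 3 638 and 745. With a filter at 5 FPKM, which tests fewer genes, differentiation in WT called 4 higher and 6 lower, differentiation in NFIA-Tg 11 lower, and the interaction 0 higher and 11 lower. TPM scaling gave 5 higher in WT. With no filter the interaction was called positive for 3 Hox genes in all, against 1 in the main fit. Hoxa10 reversed under TPM in NFIA-Tg (-0.16), and the cause was not tested. Calls kept under all alternatives were 0 of 4 in iWAT, 15 of 19 for differentiation in WT, 20 of 21 in NFIA-Tg and 15 of 19 for the interaction. Hoxb5, Hoxc11, Hoxc12 and Hoxa3 lost the interaction call under at least 1 alternative, and Hoxb5, Hoxc11 and Hoxc12 did so when single libraries were left out. Hoxb3 and Hoxb7 gained it with pseudocounts of 0.1 and 0.5, TPM scaling and voom on recovered reads.

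Replicate numbers did not pair the samples, with correlations of deviations from 0.007 to 0.115 in iWAT and -0.108 to 0.156 between culture groups. With the number as a replicate block, 6 Hox genes were called higher in iWAT, the counts for differentiation were 8 higher and 11 lower in WT and 3 and 18 in NFIA-Tg, and the interaction gave 1 and 17. Depth limits the low end: Hoxb5 in NFIA-Tg day 7 cultures rests on 18 reads over 3 libraries.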
